A study of Mus musculus with 18 samples.

Results

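The transcriptome of sorted bone marrow cells was compared between 3 libraries homozygous for a knockout of Fabp4 (KO) and 3 wild-type (WT) libraries. These were 6 of the 18 mouse samples of the series, chosen by their labels and not by any measured value. The others were 3 heterozygous (HET) marrow samples and a set of 9 samples that the labels describe as sorted from vitro bone marrow, called the in vitro set here. The labels give neither the sorted population nor the strain, age or sex of the mice, the kind of knockout allele, or the cell type in which it acts. Nothing ties the libraries to different mice, so the p-values speak only of how far these libraries vary, which may be technical. The series title asks about Fabp4 in leukemia stem cells and in normal hematopoietic stem cells, and no label says whether the marrow held leukemia cells.

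Fabp4 encodes a small cytosolic carrier that binds long-chain fatty acids and is best known from adipocytes and macrophages. Bone marrow makes neutrophils in steps, and each step stores its own proteins: promyelocytes fill primary granules with myeloperoxidase and serine proteases, and later myelocytes and metamyelocytes fill secondary and tertiary granules with lactoferrin, cathelicidin and related proteins. Monocytes and dendritic cells arise from neighbouring progenitors, and dendritic cells carry peptides to T cells on MHC class II.

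Values are FPKM, fragments scaled to transcript length and to the library's mapped fragments, and they are levels per length. The marrow table lists 13195 genes, of which 3872 were above 0 in all 6 libraries. It is sparse: of 7635 genes that reached 10 FPKM in a library, 54.5% were listed at 0 in another. Libraries correlated across genes at a Spearman coefficient of 0.555 to 0.617 within a genotype and 0.534 to 0.621 between KO and WT, against 0.962 to 0.970 in the in vitro set. The estimated depth was 16.4, 34.0 and 35.8 M fragments in KO and 21.8, 25.8 and 31.6 M in WT. KO replicate 1 had the fewest genes above 0, at 6560, against 8519 and 8405 in KO replicates 2 and 3 and 8194 to 8526 in WT libraries. Xist, the X inactivation RNA, was at 5.01, 13.8 and 9.81 FPKM in KO libraries and at 57.2, 37.6 and 46.0 FPKM in WT libraries. The Y genes Ddx3y, Eif2s3y, Uty and Kdm5d summed to 34.6, 15.1 and 4.26 FPKM in KO and to 0, 0 and 3.90 FPKM in WT. The mix of male and female cells thus moved with genotype in these libraries, and the 2 cannot be told apart.

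The targeted gene itself was not analysed here in marrow, so it gives no check of the genotype labels. Of its family, Fabp5, the epidermal fatty acid binding protein, was listed at 0, 7.41 and 26.4 FPKM in KO and at 0, 0.0406 and 37.2 FPKM in WT. Fabp1, the liver form, was above 0 only in WT replicate 2 at 53.5 FPKM, and Fabp12 only in KO replicate 1 at 19.5 FPKM. None of the family members with values separated the genotypes.

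No gene passed the test in either of the tests across genes. With limma on log2(FPKM + 1) over 3733 genes above 0 in all 6 libraries, 0 (0%) had a Benjamini-Hochberg adjusted p under 0.05, and 246 (6.59%) had an unadjusted p under 0.05. Over the wider set of 6775 genes with at least 1 FPKM in at least 3 libraries, 0 (0%) passed and 457 (6.75%) had an unadjusted p under 0.05. The differences below are therefore given as values and as separation of the libraries. Among the 3733 genes all KO libraries lay above all WT libraries for 173 (4.63%) and below them for 350 (9.38%), and among the 6775 genes for 288 (4.25%) and 571 (8.43%). This balance depended on the scaling: of the 3733 genes, 250 lay above and 229 below with median-ratio size factors, 246 and 262 after rescaling without the neutrophil granule lists, and 128 and 460 after rescaling to TPM. Counts of separated list members below are over genes above 0 in all 6 libraries, to be read against 4.63% above and 9.38% below. The reason is that a gene that passes the wider filter through 1 genotype alone has to separate. Some such genes remain among the 3733, Wars1 and Dtx3 among them. Separation was more frequent among abundant genes: of 876 genes with a mean of at least 100 FPKM, 51 (5.82%) had KO above WT and 145 (16.6%) had KO below WT. The median log2 change over the 3733 genes was -0.16, so FPKM of a typical gene was slightly lower in KO.

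The list of neutrophil secondary and tertiary granule genes, which also holds the genes of their calcium-binding cytosolic partners, had the largest median log2 change of the lists plotted, 1.48 over 9 members above 0 in all 6 libraries. With each library left out this median ran from 1.23 to 2.79, and over the 13 tested members it was 3.49. The 13 include members listed at 0 in a library. Ltf, among them, passed the filter through KO alone, so the larger median adds no support. S100a8 (chromosome 3, 90669071 to 90670034), which encodes one chain of calprotectin and was the most abundant gene by mean FPKM, was at 138697, 83026 and 100020 FPKM in KO and at 33972, 28261 and 837 FPKM in WT. It alone held 19.0, 12.6 and 13.9% of all FPKM in KO libraries, against 5.16, 4.52 and 0.143% in WT libraries. The groups did not overlap, and WT replicate 3 was far below the other WT libraries. Of the 15 listed members, 13 were tested and 9 were above 0 in all 6 libraries. Of these 9, 4 had KO above WT, against 4.63% of all genes, and 0 had KO below WT, against 9.38%. The summed level of the listed members was 215947, 135291 and 170600 FPKM in KO and 56709, 40567 and 2574 FPKM in WT.

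Camp, the cathelicidin antimicrobial peptide, was at 30328, 19149 and 30416 FPKM in KO and at 5809, 5084 and 150 FPKM in WT. Ngp, neutrophilic granule protein, was at 22434, 15563 and 20514 FPKM in KO and at 3962, 2236 and 83.0 FPKM in WT. S100a9, the calprotectin partner of S100a8, was at 13876, 11189 and 11970 FPKM in KO and at 3978, 2698 and 91.6 FPKM in WT. All 3 genes shared the lowest libraries of S100a8, with KO replicate 2 lowest in its group and WT replicate 3 lowest of all libraries. Ltf, lactoferrin, was at 107, 146 and 191 FPKM in KO, whereas WT libraries listed 0.0335, 0.0706 and 0 FPKM. Ltf passed the filter through KO alone, so its separation is no finding. Its log2 change was 7.13 ± 1.203 (SE; limma adjusted p = 0.145), and the same filter fixed its direction. Lcn2, lipocalin 2, was at 839, 767 and 610 FPKM in KO and at 450, 70.6 and 0 FPKM in WT. Cd177, a neutrophil surface glycoprotein from the mature neutrophil list, was at 232, 228 and 302 FPKM in KO and at 46.9, 0.0705 and 42.4 FPKM in WT, a log2 difference of 4.27 ± 1.32 (SE; limma adjusted p = 0.547). The stefin gene Stfa1, a cysteine protease inhibitor of the same late granulocytes, was at 17906, 7459 and 9162 FPKM in KO and at 5823, 2700 and 174 FPKM in WT.

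WT replicate 3 decided how these genes stood in the test. With all libraries the log2 change was 3.49 ± 1.57 for S100a8 and 4.41 ± 1.53 for Ngp (SE; limma adjusted p = 0.737 and 0.705). Without WT replicate 3 the log2 changes were smaller and passed the threshold: 1.76 for S100a8 and 1.91 for S100a9 (limma adjusted p = 0.0494 for each), 2.26 for Camp and 2.69 for Ngp (limma adjusted p = 0.0322 for each). Among the HET libraries with values, S100a8 was at 94378 and 90396 FPKM and Camp at 19004 and 23781 FPKM. Ngp, at 4464 and 5239 FPKM, and S100a9, at 6939 and 6762 FPKM, lay between the KO and WT values. Lcn2 was at 208 and 31.1 FPKM and Cd177 at 0 and 7.19 FPKM. Ltf was listed at 0 in both HET libraries, and an exact 0 can be a failed estimate.

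**Figure D1:**
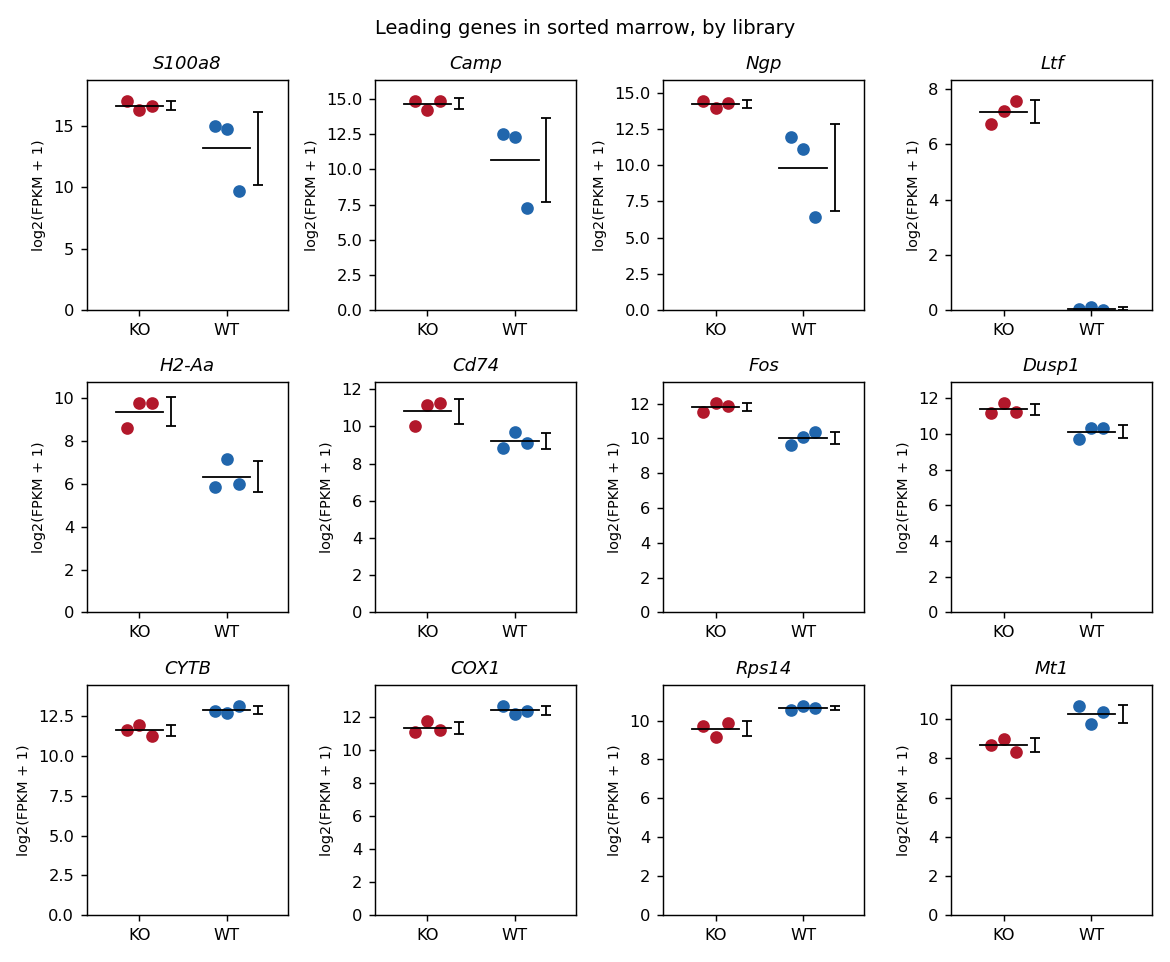
Values of 12 genes in sorted marrow, with log2(FPKM + 1) on each vertical axis and each point a library (KO left, WT right); horizontal lines are group means and the bars beside them are 1 SD (n = 3). S100a8, Camp and Ngp have 1 WT library far below the rest, Ltf is at or near 0 in all WT libraries, and the CYTB, COX1, Rps14 and Mt1 points are lower in KO.

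Primary granule genes, of the earlier stage, overlapped between genotypes in the deposited values. Of 8 members 0 had KO above WT and 0 below, near the shares of all genes (4.63% and 9.38%), and 7 of the 8 log2 changes were positive, with a median of 0.36. After rescaling without the granule lists, or with median-ratio size factors, 1 of the 8 had KO above WT. Elane, neutrophil elastase, was at 3923, 4234 and 4164 FPKM in KO and at 5347, 2122 and 3049 FPKM in WT. Mpo, myeloperoxidase, was at 490, 917 and 1068 FPKM in KO and at 652, 387 and 544 FPKM in WT, and both genes overlapped between genotypes. Chil3, a chitinase-like protein placed with the secondary granule genes, was at 8524, 4454 and 5964 FPKM in KO and at 7200, 1625 and 897 FPKM in WT. Receptors of mature neutrophils also overlapped, as for Csf3r, the G-CSF receptor, at 0.0264, 16.9 and 44.1 FPKM in KO and 1.79, 41.5 and 22.5 FPKM in WT. In bulk RNA, fewer cells of a type and less RNA per cell cannot be told apart.

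To show the DNA of 2 granule genes that hold the motif described next, the 200 bases before the start of Ltf (chr9:111019092-111019291, plus strand) and of Ngp (chr9:110419608-110419807, plus strand) are printed 5′ to 3′ in the direction of transcription from RefSeq on GRCm38.p6. Capitals mark TTGCNNAA on either strand, a pattern that resembles sites of the C/EBP factors that drive granulocyte maturation. The motif was present in 2 of 6 granule genes with KO above WT, Ltf and Ngp. It was present in 7.47% of 27025 promoter windows of the same length. Other members of the granule list were not searched, so the share says nothing about the KO difference. Of the 6, Ltf and Lcn2 were listed at 0 in a library. Ltf passed the filter through KO alone and so had to separate, which leaves Ngp as the motif holder to set against 7.47%.
Ltf: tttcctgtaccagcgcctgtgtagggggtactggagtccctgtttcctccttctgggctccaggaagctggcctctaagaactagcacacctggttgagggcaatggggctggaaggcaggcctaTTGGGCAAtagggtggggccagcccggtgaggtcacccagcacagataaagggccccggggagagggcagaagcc
Ngp: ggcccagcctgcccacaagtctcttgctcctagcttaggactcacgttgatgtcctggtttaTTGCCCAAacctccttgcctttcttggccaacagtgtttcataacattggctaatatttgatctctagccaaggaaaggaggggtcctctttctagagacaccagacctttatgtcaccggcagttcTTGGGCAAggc
The letters describe these windows only and show no binding in these cells.

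MHC class II genes also had higher KO values. H2-Aa (chromosome 17, 34282744 to 34287823), the alpha chain of the I-A molecule, was at 382, 861 and 864 FPKM in KO and at 56.6, 142 and 63.0 FPKM in WT, a log2 difference of 3.03 ± 0.51 (SE; limma adjusted p = 0.385). H2-Ab1, its beta chain, was at 329, 1735 and 654 FPKM in KO and at 284, 287 and 188 FPKM in WT, and H2-Eb1, the beta chain of I-E, was at 131, 376 and 163 FPKM in KO and at 109, 84.3 and 75.3 FPKM in WT. Cd74, the invariant chain that escorts class II to the endosome, was at 1033, 2267 and 2437 FPKM in KO and at 455, 827 and 547 FPKM in WT, a log2 difference of 1.60 ± 0.39 (SE; limma adjusted p = 0.532). KO replicate 1 had the lowest value of its group for all 4 genes and still lay above every WT library. Among the 876 genes of at least 100 FPKM, fitted alone, H2-Aa was 1 of 4 (0.457%) that passed (limma adjusted p = 0.00852), a subset chosen after the data were seen.

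The rest of the class II and dendritic cell list did not follow. Of its 10 members 4 had KO above WT, against 4.63% of all genes, and 1, Tcf4, had KO below WT, against 9.38%, and after rescaling to TPM 3 lay above. Ciita, the class II transactivator, was at 0, 3.93 and 2.63 FPKM in KO and at 0, 0.00396 and 0 FPKM in WT. H2-DMa and H2-DMb1, which load peptide onto class II, overlapped between genotypes, and so did Irf8, a factor of dendritic cells and monocytes, at 105, 118 and 122 FPKM in KO and 109, 169 and 220 FPKM in WT. Monocyte genes were lower or overlapped: Csf1r, the M-CSF receptor, was at 35.7, 32.2 and 27.2 FPKM in KO and at 68.1, 39.0 and 90.7 FPKM in WT. F13a1 and Ms4a6c also had KO below WT, giving 3 of 10 monocyte and macrophage genes, against 9.38% of all genes. The count was 1 of 10 after rescaling without the granule lists and with median-ratio size factors. The myeloid factor Spi1 (PU.1) was at 481, 446 and 580 FPKM in KO and at 296, 323 and 310 FPKM in WT.

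The 200 bases before the start of H2-Aa (chr17:34287824-34288023, minus strand) are shown because class II promoters share a compact control region. Capitals mark TGACGT on either strand, the core of the cyclic AMP response element, which the X2 box of class II promoters resembles, and CCAAT on either strand, the Y box. TGACGT was present in 5.99% and CCAAT in 30.0% of 27025 windows of that length. H2-Eb1 held CCAAT and no TGACGT in its window.
H2-Aa: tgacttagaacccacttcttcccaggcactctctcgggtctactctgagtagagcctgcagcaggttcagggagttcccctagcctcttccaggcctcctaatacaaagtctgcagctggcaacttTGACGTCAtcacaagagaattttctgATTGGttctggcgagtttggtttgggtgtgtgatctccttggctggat

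Immediate early genes, which cells switch on within minutes of a stimulus, were mostly higher in KO. Fos (chromosome 12, 85473890 to 85477274), an AP-1 subunit, was at 2963, 4167 and 3656 FPKM in KO and at 791, 1063 and 1302 FPKM in WT, a log2 difference of 1.79 ± 0.27 (SE; limma adjusted p = 0.29). It had the smallest p of all genes in both tests. Dusp1, a phosphatase that switches off MAP kinases, was at 2339, 3395 and 2420 FPKM in KO and at 842, 1283 and 1303 FPKM in WT, a log2 difference of 1.26 ± 0.28 (SE; limma adjusted p = 0.517). Jun, the AP-1 partner of Fos, was at 455, 687 and 510 FPKM in KO and at 359, 114 and 302 FPKM in WT. Btg2, an antiproliferative gene, was at 377, 284 and 206 FPKM in KO and at 148, 104 and 93.8 FPKM in WT. Jund, Ier5 and Zfp36, the last a protein that destabilises cytokine mRNAs, completed 7 of 18 members with KO above WT, against 4.63% of all genes, and 0 had KO below WT, against 9.38%. The count was 9 after rescaling without the granule lists, 11 with median-ratio size factors and 7 after rescaling to TPM. Over these 18 members the median log2 change was 0.62, with 16 positive and 2 negative, against a median of -0.16 over all genes.

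Several members overlapped between genotypes. Fosb was at 46.5, 99.8 and 75.7 FPKM in KO and at 119, 54.9 and 39.7 FPKM in WT, and Egr1, a zinc finger factor, at 141, 432 and 214 FPKM in KO and at 35.2, 1.13 and 188 FPKM in WT. Ier3 was at 0.0561, 55.7 and 154 FPKM in KO and at 391, 69.5 and 51.0 FPKM in WT. Fos passed the test in marrow under median-ratio size factors (log2 change 1.996, limma adjusted p = 0.0429) and among genes of at least 100 FPKM (limma adjusted p = 0.00852).

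TGACGT was searched in the same windows of the 7 separated immediate early genes because cyclic AMP and MAP kinase signals reach many through it. Of these 7 genes 3 held it, Btg2, Fos and Dusp1, against 5.99% of 27025 windows of that length. The 7 were picked by their separation in these data. Other members of the list were not searched, so the share says nothing about the KO difference. The windows of Fos (chr12:85473690-85473889, plus strand) and Dusp1 (chr17:26508473-26508672, minus strand) are printed with TGACGT on either strand in capitals.
Fos: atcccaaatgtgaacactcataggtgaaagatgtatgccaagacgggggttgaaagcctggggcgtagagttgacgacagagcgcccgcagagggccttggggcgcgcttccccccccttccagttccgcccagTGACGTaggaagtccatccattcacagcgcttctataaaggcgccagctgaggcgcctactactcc
Dusp1: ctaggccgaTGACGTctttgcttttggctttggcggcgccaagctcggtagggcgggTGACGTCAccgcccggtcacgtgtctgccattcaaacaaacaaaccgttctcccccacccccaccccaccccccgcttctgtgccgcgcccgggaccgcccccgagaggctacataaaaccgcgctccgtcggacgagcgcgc

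Transcripts of the mitochondrial genome were lower in KO. All 13 protein-coding genes had a negative log2 change and 12 of them had every KO library below every WT library, against 9.38% of all genes and 16.6% of genes of at least 100 FPKM. CYTB (14145 to 15288 of the mitochondrial genome), cytochrome b of complex III, was at 3204, 4029 and 2446 FPKM in KO and at 7233, 6858 and 9318 FPKM in WT, a log2 difference of -1.29 ± 0.24 (SE; limma adjusted p = 0.45). COX1, the catalytic subunit of cytochrome oxidase, was at 2203, 3477 and 2362 FPKM in KO and at 6721, 4681 and 5371 FPKM in WT. ND1, a complex I subunit, was at 1097, 1566 and 1147 FPKM in KO and at 4525, 2108 and 3152 FPKM in WT. ND2, another, was at 299, 341 and 132 FPKM in KO and at 1366, 898 and 580 FPKM in WT. Only ND4L overlapped, at 0.206, 1.19 and 2.82 FPKM in KO and 1.86, 1.56 and 1.71 FPKM in WT. The 13 genes together held 1.004, 1.65 and 0.993% of all FPKM in KO and 3.60, 2.75 and 3.59% in WT. They are made from shared precursor transcripts, and ND4L with ND4 and ATP8 with ATP6 share bases, so they are not independent.

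The nuclear genes of the respiratory chain, complex II and cytochrome c included, had a smaller median log2 change than the mitochondrially encoded genes. Of 26 members 2 had KO above WT, Sdha of complex II among them, against 4.63% of all genes, and 5 had KO below WT, close to the 16.6% of genes of at least 100 FPKM. With median-ratio size factors 3 lay above and 2 below, and the median log2 change as deposited was -0.46. Cycs, cytochrome c, was at 131, 118 and 94.9 FPKM in KO and at 252, 315 and 233 FPKM in WT. Cox7c was at 277, 208 and 412 FPKM in KO and at 521, 520 and 480 FPKM in WT.

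Cytosolic ribosomal protein genes, which encode the structural proteins of the translating ribosome, were also lower. Of 44 members 28 had KO below WT, against 9.38% of all genes and 16.6% of genes of at least 100 FPKM, and 0 had KO above WT. The count below WT was 19 with median-ratio size factors and 35 after rescaling to TPM. As deposited 43 log2 changes were negative, with a median of -0.76. Rps14 was at 844, 563 and 935 FPKM in KO and at 1475, 1744 and 1590 FPKM in WT, and Rpl12, a ribosomal protein gene outside the list, at 177, 196 and 204 FPKM in KO and at 594, 463 and 477 FPKM in WT, a log2 difference of -1.40 ± 0.33 (SE; limma adjusted p = 0.532). Rplp2, a stalk protein, was at 92.2, 432 and 391 FPKM in KO and at 963, 938 and 834 FPKM in WT. The list held 2.76, 3.06 and 3.44% of all FPKM in KO and 6.34, 5.02 and 6.07% in WT. Many of these genes have processed pseudogenes, and how shared reads were counted is not given in the sources used here. Translation factors had a median of -0.31, with 1 of 23 above and 5 below, against 4.63% and 9.38% of all genes and 16.6% below among genes of at least 100 FPKM.

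FPKM are relative to the library total, and the granule share differed alongside these groups. The granule lists held 31.9, 24.1 and 27.4% of all FPKM in KO and 11.5, 9.01 and 3.69% in WT. When libraries were rescaled without these lists, a step added after the data were seen, the median of all 3733 genes was -0.01, that of the mitochondrially encoded genes -1.12 and that of the ribosomal genes -0.59. On that scale 12 of 13 mitochondrially encoded genes and 20 of 44 ribosomal genes still had KO below WT, against 262 (7.02%) of all genes and 106 (12.1%) of those of at least 100 FPKM. With median-ratio size factors the medians were -1.08 and -0.56.

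**Figure D2:**
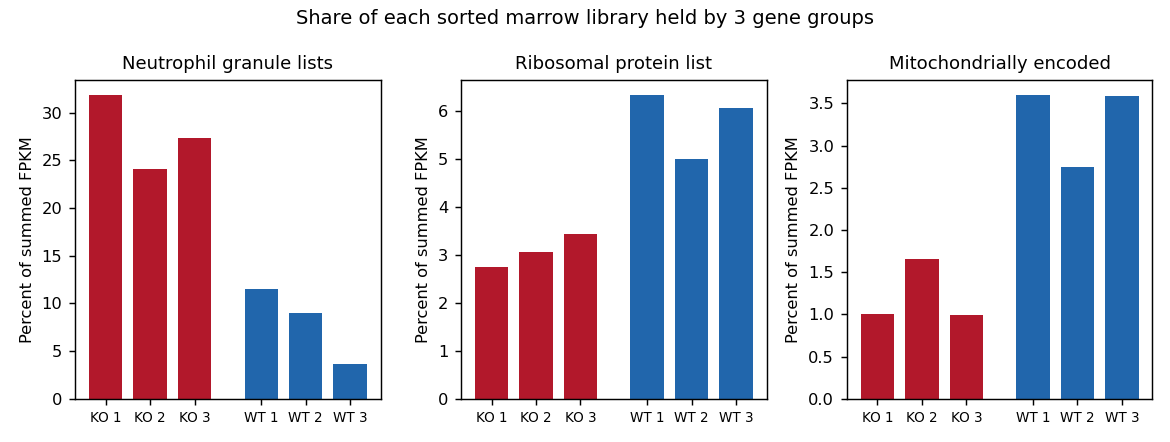
Percent of the summed FPKM of each sorted marrow library held by the neutrophil granule lists, the cytosolic ribosomal protein list and the mitochondrially encoded genes (bars, 1 per library, KO left and WT right). The granule lists take 24.1 to 31.9% in KO and 3.69 to 11.5% in WT, and both other groups take less in every KO library than in any WT library.

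**Figure D3:**
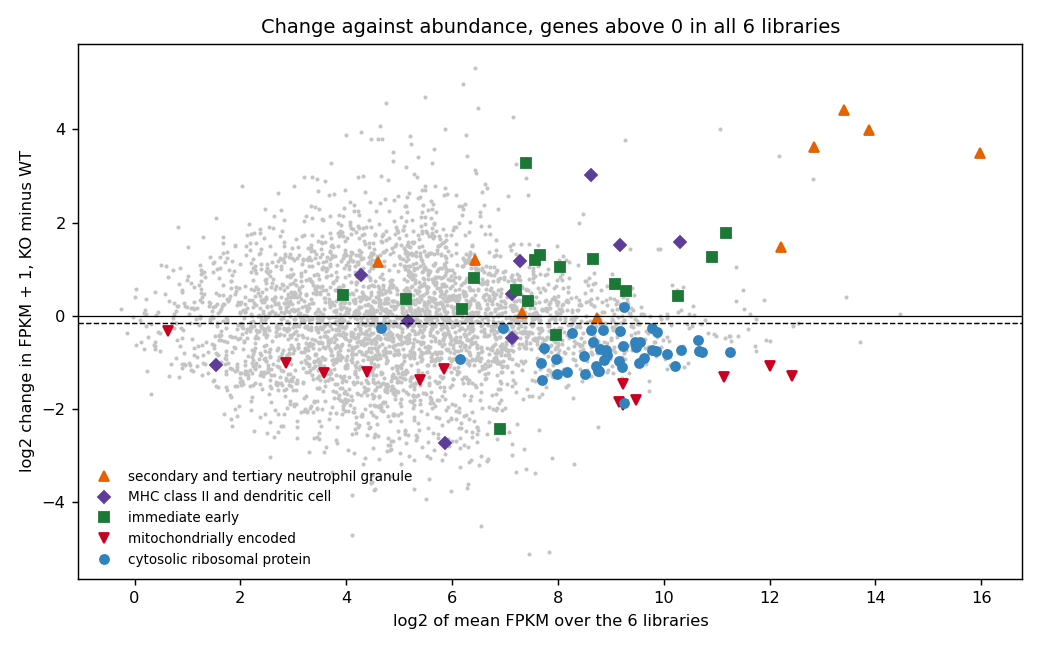
Log2 change in FPKM + 1 (KO minus WT) against log2 of the mean FPKM for 3733 genes above 0 in all 6 libraries (grey), with 5 lists coloured; the dashed line is the median of all genes, -0.16. S100a8, Camp, Ngp and S100a9 lie at the upper right, and the mitochondrially encoded genes lie below the line over the whole range of abundance.

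Metal and stress genes included several with lower KO values. Mt1, metallothionein 1, which binds zinc and copper, was at 417, 511 and 317 FPKM in KO and at 1658, 866 and 1319 FPKM in WT, a log2 difference of -1.60 ± 0.34 (SE; limma adjusted p = 0.517). Mt2, its neighbour on chromosome 8, was at 207, 3.55 and 0.502 FPKM in KO and at 411, 282 and 464 FPKM in WT, and it passed without KO replicate 1 (log2 change -7.18, limma adjusted p = 0.0389). Ftl1, the light chain of the iron store ferritin, was at 9041, 11023 and 12387 FPKM in KO and at 14869, 17926 and 14951 FPKM in WT. Fth1, its heavy chain, was at 3511, 2876 and 3233 FPKM in KO and at 4694, 5063 and 3975 FPKM in WT. These 4 genes had KO below WT among 7 iron and heme genes, against 9.38% of all genes, and 1, Ppox of heme synthesis, had KO above WT, against 4.63%. Cdkn1a, the CDK inhibitor p21, was at 192, 78.9 and 57.2 FPKM in KO and at 331, 285 and 308 FPKM in WT, a log2 difference of -1.68 ± 0.51 (SE; limma adjusted p = 0.547). Cdkn2d, the inhibitor p19, was at 131, 236 and 141 FPKM in KO and at 404, 416 and 329 FPKM in WT. Among 15 chaperone genes, Hspe1, Hsp90aa1 and Hsp90ab1 had KO below WT, against 9.38% of all genes, and Dnaja1 and Dnajb1 had KO above WT, against 4.63%.

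Genes of stem cells and of the leukemia program were mostly low and uneven between libraries. Kit, a receptor tyrosine kinase of stem and progenitor cells, was at 0.0472, 19.4 and 1.60 FPKM in KO and at 1.90, 0.00747 and 8.51 FPKM in WT. Cd34 was at 0.0245, 45.2 and 46.0 FPKM in KO and at 21.9, 61.6 and 55.2 FPKM in WT, and Ly6a (Sca-1) at 0.0610, 0 and 0.195 FPKM in KO and at 55.5, 22.5 and 0 FPKM in WT. Hoxa9, a homeobox gene of the leukemia program, was at 20.2, 14.97 and 8.78 FPKM in KO and at 13.6, 13.1 and 5.15 FPKM in WT. Meis1, its cofactor, was at 0.0167, 26.2 and 29.4 FPKM in KO and at 0, 17.7 and 1.87 FPKM in WT. Of 8 hematopoietic stem cell genes and 10 leukemia program genes 0 separated the genotypes as deposited, which is near the shares of all genes (4.63% above and 9.38% below) and is no result about these genes. Pbx3, a leukemia program gene listed at 0 in KO replicate 3, lay below WT in all KO libraries. Of the 15 tested leukemia program genes 1 had KO below WT, near the 8.43% of all 6775 genes, which is no result either. The globin gene Hba-a1 was listed at 0 in every library but WT replicate 1, at 12.8 FPKM, and an exact 0 can be a failed estimate. The B cell gene Cd79b was at 0, 0.0239 and 42.8 FPKM in KO and at 82.0, 52.9 and 0 FPKM in WT. Whether a difference in stem cell genes of the size of their spread can be detected in libraries this sparse was not tested.

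Genes of lipid and glucose metabolism were mixed. Of 9 fatty acid oxidation genes 0 had KO above WT and 1 had KO below WT, near the shares of all genes (4.63% and 9.38%). That gene, Acaa2, the mitochondrial thiolase, was at 0.0815, 66.2 and 92.9 FPKM in KO and at 113, 120 and 137 FPKM in WT. Acadvl, an acyl-CoA dehydrogenase, was at 25.9, 15.7 and 27.8 FPKM in KO and was listed at 0 in all WT libraries, and it passed the filter through KO alone. Acly, which makes cytosolic acetyl-CoA, was at 19.4, 28.8 and 11.9 FPKM in KO and at 0.527, 1.27 and 3.93 FPKM in WT. Dhcr7, a late enzyme of cholesterol synthesis, was at 0, 0 and 0.00746 FPKM in KO and at 5.61, 3.47 and 11.6 FPKM in WT, so it too passed through 1 genotype alone. Gpi1, the glycolytic isomerase, was at 368, 413 and 276 FPKM in KO and at 153, 184 and 228 FPKM in WT. Gpi1 and Gapdh had KO above WT among 13 glycolysis genes, against 4.63% of all genes. After rescaling to TPM 0 of the 13 lay above and 1 below. Of 9 hypoxia response genes 0 separated the genotypes as deposited, near the shares of all genes (4.63% and 9.38%). Their log2 changes were negative for 7 and positive for 2, with a median of -0.34, against -0.16 over all genes. In the in vitro set limma called 13 of 24 tested members lower in KO, against 1.64% of genes called there in either direction. That is another measure over more members, so the 2 counts do not compare.

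**Figure D4:**
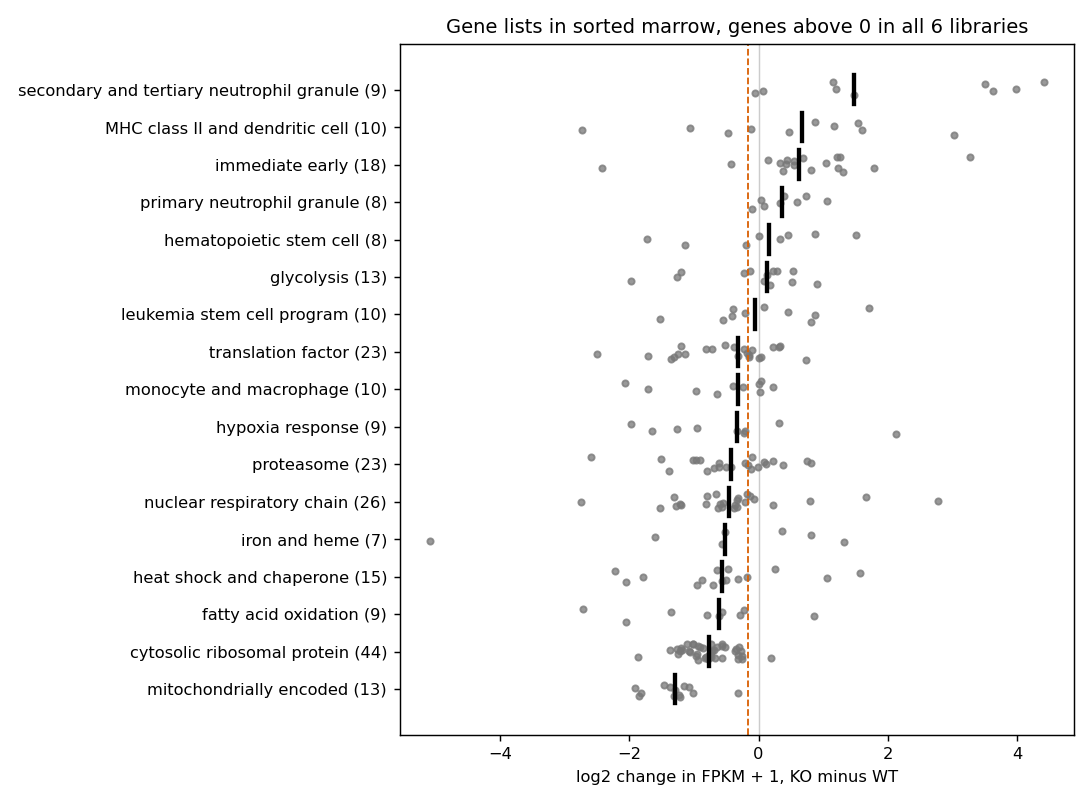
Log2 change (KO minus WT) of the members of 17 gene lists that were above 0 in all 6 libraries (points, number in brackets), with the list median as a black bar and the median of all genes as a dashed line. Medians run from 1.48 for the secondary and tertiary granule genes to -1.29 for the mitochondrially encoded genes.

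The rule also named further genes of smallest p with separated libraries. Camk1, a calcium and calmodulin dependent kinase, was at 146, 80.8 and 205 FPKM in KO and at 5.32, 4.26 and 21.9 FPKM in WT, a log2 difference of 3.89 ± 0.85 (SE; limma adjusted p = 0.517). Penk, the enkephalin precursor, was at 585, 395 and 734 FPKM in KO and at 106, 267 and 60.5 FPKM in WT. Cd9, a tetraspanin from the adhesion list, was at 218, 106 and 153 FPKM in KO and at 0.307, 41.9 and 0.0265 FPKM in WT. Wars1, the tryptophanyl-tRNA synthetase, was at 0.914, 0.0102 and 0.00971 FPKM in KO and at 46.4, 16.8 and 39.3 FPKM in WT, so it passed the filter through WT alone. Snrpe, a core spliceosome protein, was at 78.9, 98.9 and 300 FPKM in KO and at 906, 699 and 528 FPKM in WT, and it passed among genes of at least 100 FPKM (limma adjusted p = 0.0456). Others named by the rule were H2ac13, Sinhcaf, Gmppb and Tcp11l2 with KO above WT, at log2 changes of 3.80 to 4.69. Dtx3, Tmbim4, Rpl36al and Ssr4 had KO below WT, at -5.12 to -1.22. Dtx3 was at 0.0179, 0.275 and 0.00816 FPKM in KO and at 12.3, 14.7 and 7.35 FPKM in WT. Like Wars1 it passed the filter through WT alone, so its separation is no finding.

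The in vitro set gave a separate measurement of the same genotypes with no shared library. Fos passed there, at 390 ± 38.1 FPKM in KO and 83.5 ± 11.1 FPKM in WT (SD, n = 3 each), a log2 change of 2.21 with limma adjusted p = 8.08e-05. Dusp1 passed at 167 ± 13.1 FPKM in KO and 62.5 ± 14.3 FPKM in WT (SD, n = 3 each, limma adjusted p = 0.00532). Of 23 tested immediate early genes 7 were called higher in vitro and 0 lower, against 176 (1.64%) of 10720 genes called in either direction. The mitochondrially encoded genes had a median in vitro log2 change of -0.07 and the ribosomal genes -0.02, with 0 called in either list. Among the 26 genes called higher in KO in vitro that were above 0 in all 6 marrow libraries, 20 (76.9%) had a positive change in marrow, against 42.6% of all 3627 genes, and of the 25 called lower 14 (56.0%) had a negative one, against 57.4%. No gene passed the test of the difference between the sets, 0 (0%) of 6484, so a difference in response between marrow and in vitro cells was not shown for any single gene.

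**Figure D5:**
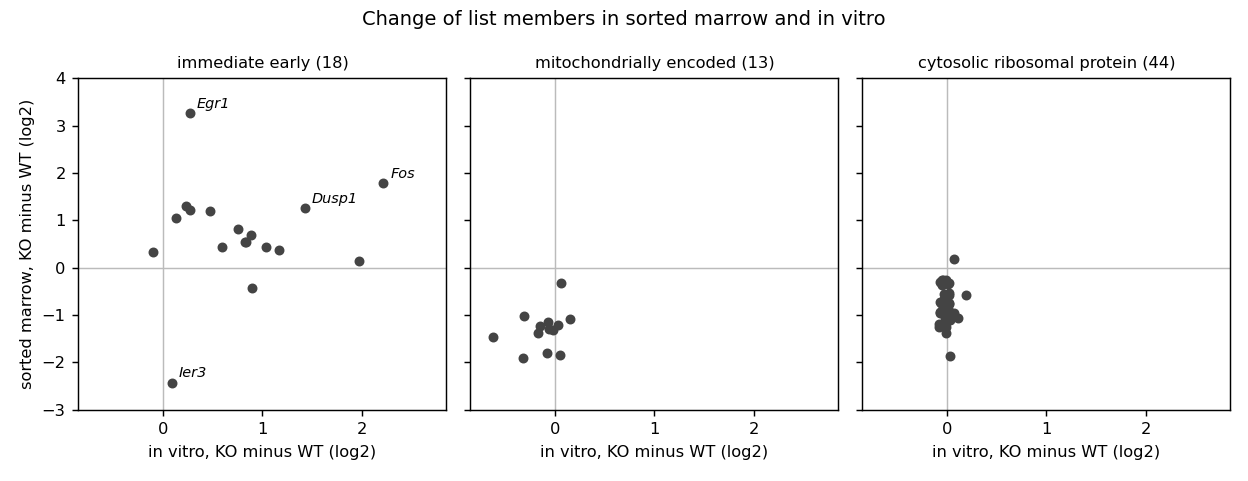
Log2 change (KO minus WT) of list members in sorted marrow (vertical) against in vitro (horizontal), for genes above 0 in all 6 marrow libraries and tested in both sets. Most immediate early genes lie above 0 in both sets with Fos and Dusp1, whereas 13 of 13 mitochondrially encoded and 43 of 44 ribosomal genes lie below 0 in marrow, with in vitro medians of -0.07 and -0.02.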

How the data were processed

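Per the labels' protocols, the workflow used TRIzol extraction and the VAHTS Universal V6 kit. The submitters' processing notes name mm10. The aligner, counter, annotation and strandedness were not given in the sources used here. In 2 tables, the authors deposited FPKM, per the file headers, 1 per set. An exact 0 can be a failed estimate. Depth was estimated from the steps of low values of single-exon genes and entered no test.

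KO and WT libraries were grouped by their titles. FPKM were tested as log2(FPKM + 1) with limma 3.58.1 in R 4.3.3 (trend, robust, no block, Benjamini-Hochberg at 0.05), which understates changes of low genes, over 6775 genes with at least 1 FPKM in at least 3 libraries and over the 3733 of these above 0 in all 6. The difference between the sets was tested over 6484 genes with weights per set. The marrow tests were tried on simulated data, with changes placed only among the most abundant genes. Recovery for less abundant genes was not tested. The noise was normal with a spread smoothed over abundance, so a library far below its group was not imitated. Over 6775 genes, 47 of 100 changes of log2 size 2 and 79 of 100 of size 4 were recovered. Over 3733 genes, 52 and 93 of 100 were recovered. Same-numbered KO and WT libraries deviated together at correlations of 0.0139, -0.0194 and 0.0345. These gave no sign that the numbers pair libraries, but in libraries that vary this much they cannot exclude it.

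Gene lists (53, with 800 of 958 genes in the marrow table) and members were chosen with earlier results of these data known. The genes named were Fabp family members, the 12 of smallest p in each direction whose libraries did not overlap and that reached 5 FPKM, the 20 most abundant, and up to 4 per list by p; other list members are named where their libraries separated or as markers, chosen after their values were seen. A few of them are not reported here. Promoter windows and positions come from RefSeq on GRCm38.p6. Alternatives covered pseudocount, scaling, filters, weights, a replicate block and each library left out.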

Additional observations from a re-analysis of the deposited data

How the results depend on the processing

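The count of genes passing was 0 in all 3 tests as reported. Over 6775 genes it was 4 under quantile normalization, 1 under median-ratio size factors and 1 after rescaling without the neutrophil granule lists, and between 0 and 5 with each library left out. Over 3733 genes it was 1 under median-ratio size factors, 4 among genes with a mean of at least 100 FPKM, and 0 to 4 with each library left out. The difference between the sets gave 34 genes without weights and 0 to 1 with each library left out. The rescaling without granule lists and the abundance filter were chosen after seeing the data. The cause of these shifts was not tested. With the replicate number as a block, for which no sign of pairing was seen, the count was 0 in all 3 tests. The log2 changes of the 53 genes followed through the alternatives kept their direction in all of them. For a gene whose KO and WT libraries do not overlap, leaving out a library cannot reverse the direction. That part of the outcome was fixed beforehand, and it says nothing about genes that were not followed. Depth is estimated only, the values are sparse and each genotype has 3 libraries, which limits what these tests can detect.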
